A study of Mus musculus with 56 samples.

Results

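Immediate-early genes and genes of the response to dissociation stress were followed in thymic epithelial cells around parturition. The group holds 35 genes, listed by name and not by any measured value, and all 35 were found by their Ensembl identifier among the 50600 genes of each sample, through the symbols of GENCODE M21. The AP-1 and related leucine zipper factors are the 9 genes Fos, Fosb, Fosl1, Fosl2, Jun, Junb, Jund, Atf3 and Maff. Other immediate-early transcription factors are the 10 genes Egr1, Egr2, Egr3, Nr4a1, Nr4a2, Nr4a3, Klf2, Klf4, Klf6 and Myc. Phosphatases, RNA decay factors and other feedback genes are the 10 genes Dusp1, Dusp2, Dusp5, Zfp36, Btg1, Btg2, Ier2, Ier3, Ier5 and Rhob. Heat shock and growth arrest genes are the 6 genes Hspa1a, Hspa1b, Dnajb1, Ppp1r15a, Gadd45b and Gadd45g.

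Immediate-early genes are transcribed within minutes of a stimulus from factors that are already in the cell, such as SRF with its partners at CArG boxes and CREB at cAMP response elements. Their products include the Fos and Jun proteins, which pair into the AP-1 factor, and proteins that end the response again: the Dusp phosphatases remove phosphate from MAP kinases and Zfp36 speeds the decay of short-lived mRNAs. Heat shock genes answer to HSF1 at heat shock elements and encode chaperones. Warm enzymatic digestion of solid tissue is a known trigger of both programmes, so that their level in sorted cells can reflect the preparation as well as the animal.

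RNA was sequenced from 28 samples of cortical (cTEC) and 28 of medullary (mTEC) thymic epithelial cells of female mice. In each cell type 3 samples came from age-matched non-pregnant controls (NPC). The others came from B6.SJL females mated with BALB/cJ males, 3 of these samples from late gestation (D-2). From parturition on, with the pups taken away at birth, 3 each came from that day (D0) and from 3, 6 and 12 days after it (D3, D6, D12). The paper gives B6.SJL as the strain for its thymus cell counts, NPC mice included, and names no other strain for the sequenced mice. Of the other 10 time points, 6 lay in the first 10 days (D1, D2, D4, D5, D8 and D10) and 4 later (D16, D20, D24 and D28), and each had 1 sample per cell type and thus no replicate error. Every thymus was digested with papain, DNase and collagenase IV in 3 incubations of 15 min at 37 °C, and the cells were then held cold (4 °C), enriched for EpCAM and sorted into Trizol. No sample was prepared without digestion, so the level in the undisturbed tissue cannot be told apart from a response to the preparation. By the study's methods each replicate came from 1 mouse, while the age of the mice is not given in the sources used here, and the number in a sample's title is used below as its name.

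Total counts ranged from 4561208 to 108547384 per sample. cTEC markers summed to 484 to 7461 FPKM in cTECs and to 202 to 2531 in mTECs, and mTEC markers to 3658 to 8118 in cTECs and 10428 to 19824 in mTECs. Markers of thymocytes (8.57 to 241 FPKM over all samples), macrophages and dendritic cells (4.48 to 215) and endothelium (0 to 11.6) stayed below the markers of each sort's own cell type. Fibroblast markers summed to 68.6 to 670 FPKM in cTECs, which overlaps the cTEC markers there, and to 88.7 to 175 in mTECs. Most of this was Dcn, with medians of 241 FPKM in cTECs and 99.4 in mTECs. In 5 libraries under 1.5% of counts came from mitochondrial genes, namely cTEC NPC number 5 (1.18%), D6 number 5 (1.16%), D16 (1.41%) and D28 (1.16%) and mTEC D3 number 3 (1.35%), against medians of 2.45% in cTECs and 2.71% in mTECs. In 2 libraries under 12000 genes reached an FPKM of 0.5, namely cTEC D3 number 2 (9998 genes) and mTEC D3 number 1 (11686). For the comparisons that hold these libraries, the main counts or medians are given below with and without them.

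Fos, Fosb, Jun, Junb, Zfp36 and Egr1 were among the most abundant transcripts of both cell types. Levels are given as FPKM, fragments scaled to transcript length and library depth, which can be compared between genes. By mean FPKM over the 28 samples, Fos ranked 26 of all genes in cTECs and 35 in mTECs, and Zfp36, Jun, Junb, Fosb and Egr1 ranked between 84 and 167 in both. In cTECs the FPKM of Fos ran from 655 at D12 number 2 over a median of 2161 to 4011 at NPC number 5. In mTECs it ran from 510 at D6 number 4 over 1928 to 4135 at D3 number 3. The early growth response factor Egr1 had medians of 779 and 597 FPKM in cTECs and mTECs, the stress-induced repressor Atf3 344 and 315, and the inducible HSP70 gene Hspa1a 230 and 219. At the other end stood the nuclear receptor Nr4a3 (medians 0.305 and 0.99 FPKM, 7 cTEC samples and 1 mTEC sample at 0) and the phosphatase Dusp2 (0.36 and 1.36). With a mean FPKM under 0.5, Dusp2 was the only member not tested within cTECs, where 34 members were therefore tested, and all 35 were tested in mTECs.

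**Figure D1:**
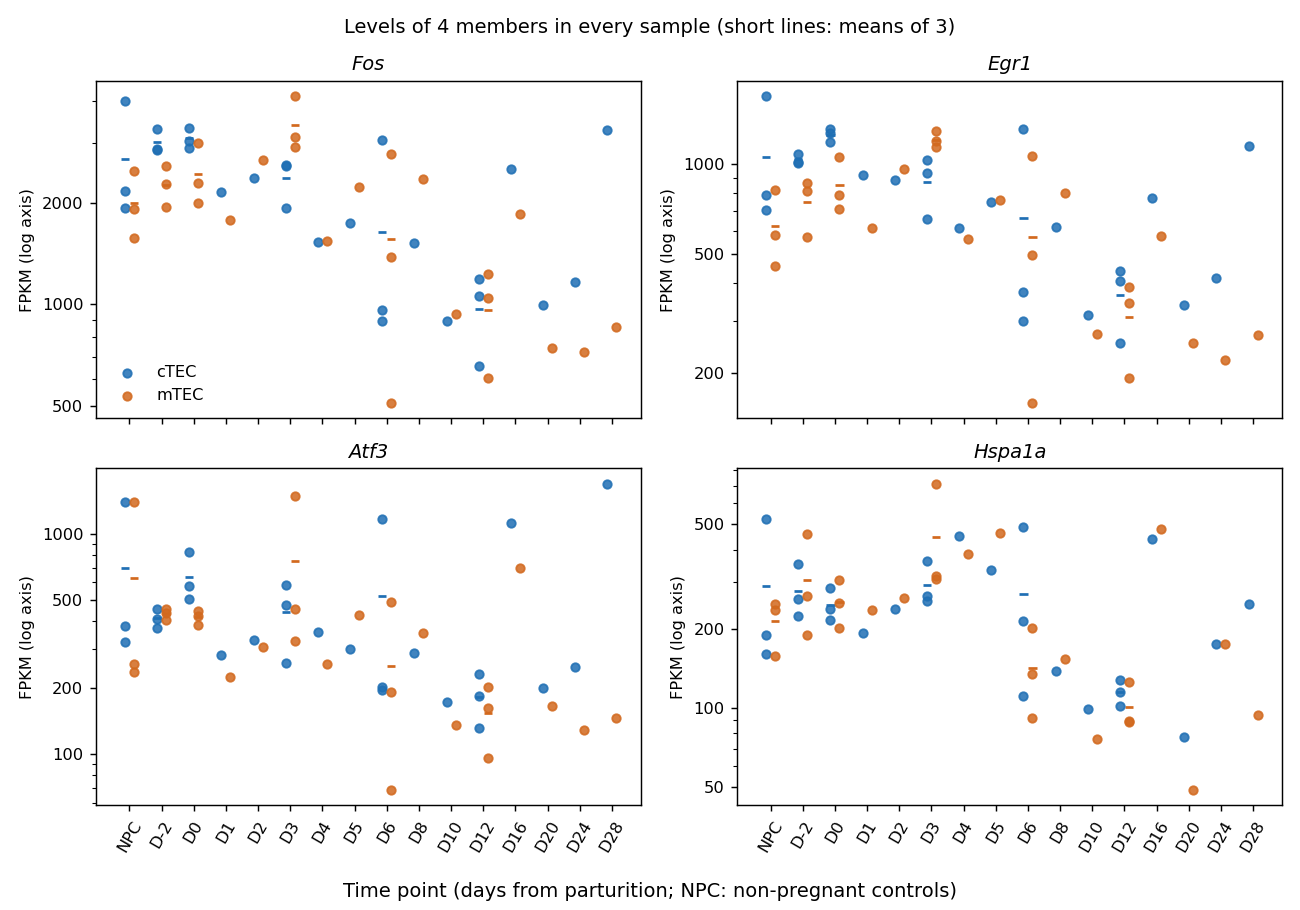
FPKM of Fos, Egr1, Atf3 and Hspa1a (log axis) in each of the 56 samples by time point, with short lines for the mean of 3 samples, cTECs in blue and mTECs in orange. The D12 samples sit low in all 4 panels, and 1 of the 3 cTEC samples of D6 and of NPC sits far above the other samples of its time point for Atf3.

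Promoter sequence is shown for members whose promoter carries a motif of the pathways above, since many members rose and fell together over samples. The 250 bases before the RefSeq start site were searched on both strands (GRCm38.p6), which covered 30 of the 35 members. No promoter was searched for Fosl1, Egr1, Egr3, Myc and Ier2. The cAMP response element TGACGTCA lay before 4 members (Btg2, Dusp1, Maff and Ppp1r15a) and before 1.55% of the 32851 promoters in the table, and its core TGACGT, which lies inside it, before 10 members and 6.47% of promoters. Counted by gene, as the members are, these shares were 1.77% and 7.29% of the 27025 genes with a promoter in the table, and 2.86% and 10.7% of the 11941 of them that were expressed. The heat shock element GAANNTTC lay before 4 members (Fosl2, Hspa1a, Hspa1b and Jun; 6.69% of promoters), the CArG box before 3 (Dusp5, Egr2 and Zfp36; 1.47%), the TATA box TATAAA before 5 (12.4%), and the AP-1 site TGANTCA before none of the 30 (6.75%). Counted by gene and by expressed gene, the shares were 7.73% and 6.17% for the heat shock element and 1.62% and 1.43% for the CArG box. They were 14.3% and 9.14% for the TATA box and 7.82% and 6.10% for the AP-1 site. All these matches describe the letters in these windows only. Below, capitals mark the motif found, in Fos the core and the TATA box, in Zfp36 the CArG box, in Dusp1 the core and the full element, and in Dusp5 a pair of adjoining CArG boxes and the core on the other strand. The Fos sequence is chr12:85473770-85473889 (+), Zfp36 chr7:28379229-28379328 (-), Dusp1 chr17:26508473-26508672 (-) and Dusp5 chr19:53529025-53529144 (+), each ending at the base before the start site and read 5′ to 3′.
Fos: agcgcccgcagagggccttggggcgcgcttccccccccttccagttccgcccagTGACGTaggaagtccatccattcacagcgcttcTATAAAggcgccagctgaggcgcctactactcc
Zfp36: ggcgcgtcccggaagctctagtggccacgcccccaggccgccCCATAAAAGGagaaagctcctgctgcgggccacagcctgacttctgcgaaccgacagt
Dusp1: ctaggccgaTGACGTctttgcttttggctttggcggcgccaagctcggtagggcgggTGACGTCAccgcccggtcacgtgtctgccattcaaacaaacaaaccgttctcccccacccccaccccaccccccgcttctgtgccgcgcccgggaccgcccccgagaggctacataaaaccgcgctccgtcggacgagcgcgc
Dusp5: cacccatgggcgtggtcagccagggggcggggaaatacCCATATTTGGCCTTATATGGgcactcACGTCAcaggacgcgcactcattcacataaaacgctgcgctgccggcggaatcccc

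The HSP70 genes Hspa1a and Hspa1b lie next to each other on chromosome 17 and are near-identical copies, which bears on their values because reads shared by both are split by estimate. Their promoters (Hspa1a chr17:34972157-34972406, Hspa1b chr17:34959239-34959488, both on the minus strand) differed at 3 of 250 bases (98.8% identical). Capitals mark the heat shock element and the 3 differing bases. The values of each gene alone are therefore uncertain.
Hspa1a: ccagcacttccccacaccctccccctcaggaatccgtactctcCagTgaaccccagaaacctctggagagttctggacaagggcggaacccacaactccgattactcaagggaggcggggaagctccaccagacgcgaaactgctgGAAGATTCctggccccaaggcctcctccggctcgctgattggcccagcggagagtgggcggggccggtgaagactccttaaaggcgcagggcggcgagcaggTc
Hspa1b: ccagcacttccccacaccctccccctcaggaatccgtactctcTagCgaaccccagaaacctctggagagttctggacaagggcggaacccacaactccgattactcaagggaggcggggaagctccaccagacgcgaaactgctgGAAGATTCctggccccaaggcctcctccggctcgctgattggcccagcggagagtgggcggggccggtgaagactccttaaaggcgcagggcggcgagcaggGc

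The members moved together from sample to sample. On log2(FPKM + 0.5), the median Pearson r of the members with Fos over 28 samples was 0.78 in cTECs (33 members) and 0.76 in mTECs (34 members), beside medians of 0.04 and -0.05 over all genes tested, and 23 and 24 members stood among the 100 genes most like Fos. The 10 genes closest to Fos in cTECs were Egr1 (r = 0.98), Zfp36, Socs3, Btg2, Junb, Ier2, Fosb, Jun, Cebpd and Csrnp1 (r = 0.90). In mTECs they were Egr1 (r = 0.99), Zfp36, Socs3, Junb, Ier2, Jun, Fosb, Btg2, Klf2 and Pim1 (r = 0.93). Socs3, Cebpd, Csrnp1 and Pim1 are not members. These are descriptions over samples that share time points, depth and preparation, and carry no test.

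Samples at the extremes were extreme for nearly the whole group. The mean difference of the 35 members from their median in the cell type, on the log2 scale, was highest in cTEC NPC number 5 (1.04), D6 number 5 (0.84), D28 (0.80) and D0 number 2 (0.78), and in mTEC D3 number 3 (1.17) and NPC number 4 (1.02). It was lowest in cTEC D12 number 2 (-1.05) and D20 (-1.03), and in mTEC D6 number 4 (-1.23), the shallowest library with 4561208 counts, and D12 number 2 (-1.004). All 35 members were above their median in cTEC D0 number 2 and D28, and 34 in mTEC NPC number 4, whereas 1 was above it in each of mTEC D6 numbers 2 and 4. Samples of the same time point could lie at opposite ends: the 3 cTEC samples of D6 had mean differences of -0.79, -0.74 and 0.84, and the 3 mTEC samples of D6 of 0.54, -0.54 and -1.23.

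**Figure D2:**
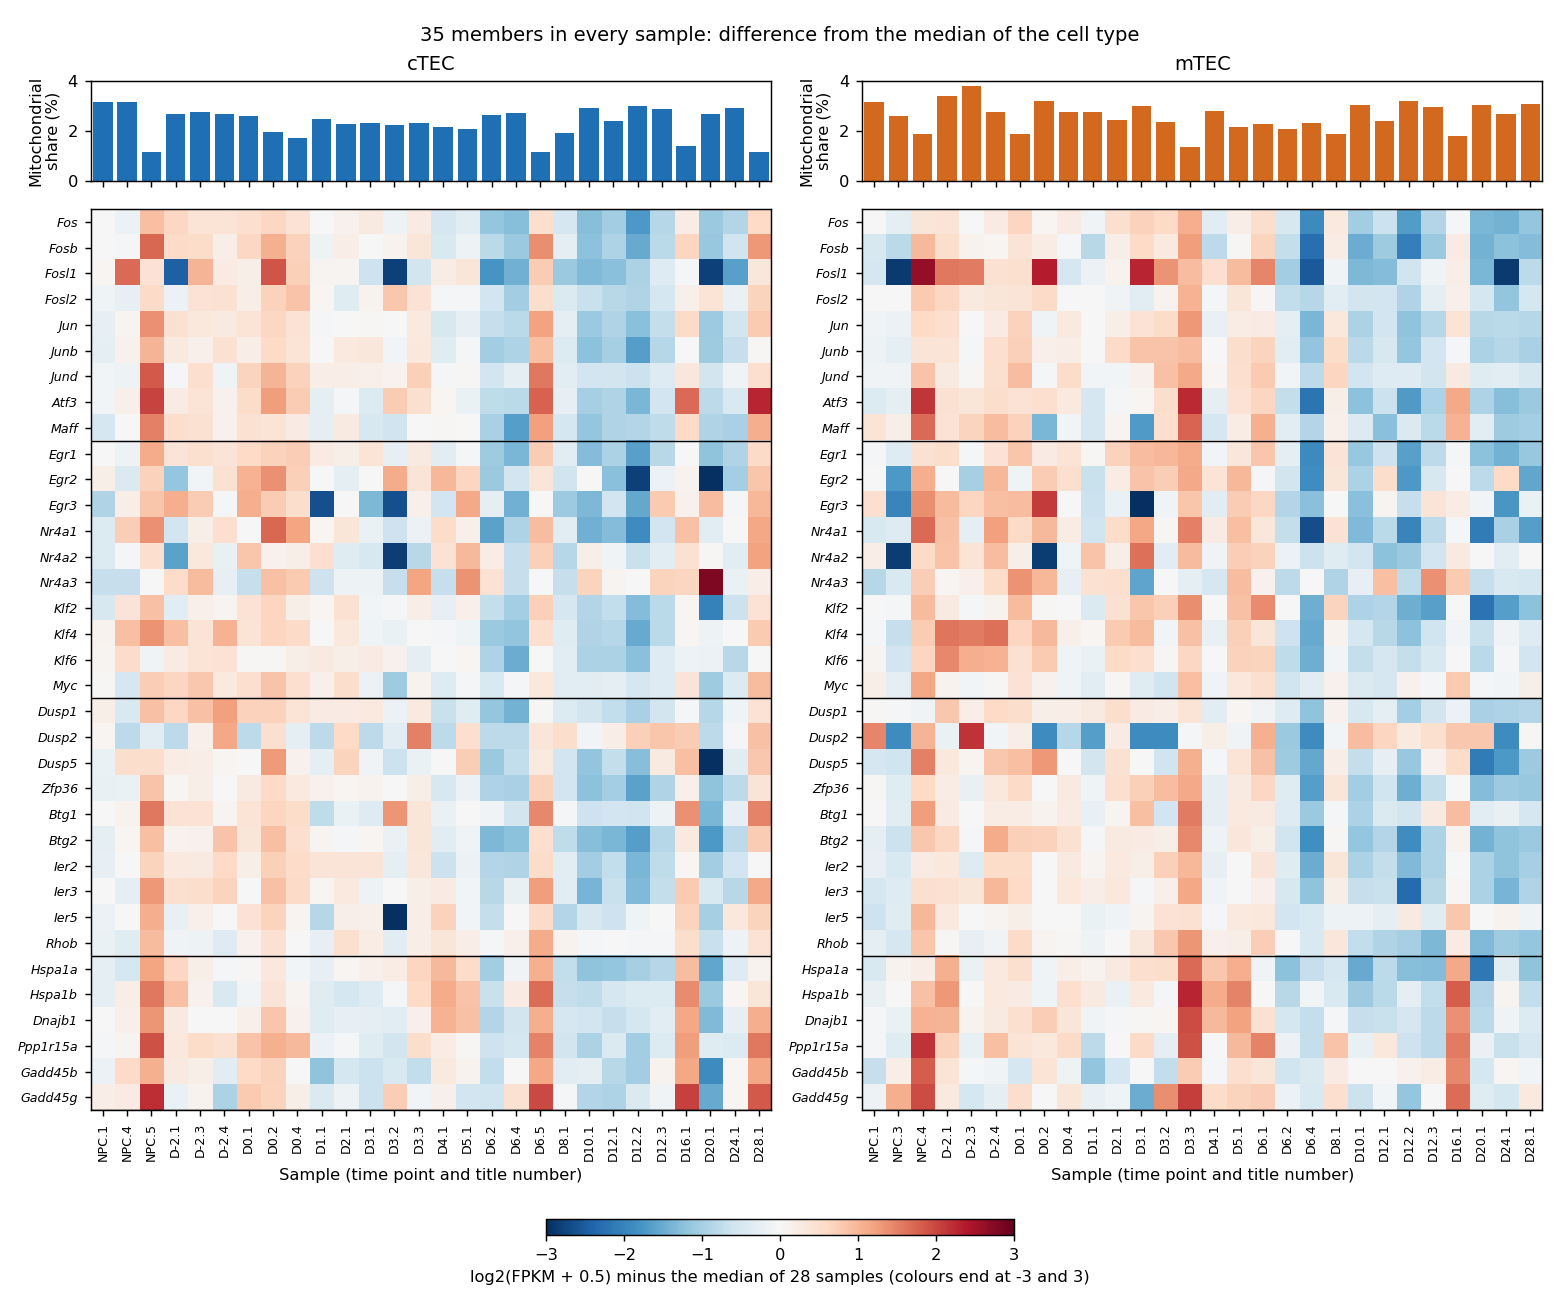
Difference of each of the 35 members (rows, grouped by family with black lines between) from its median in the cell type, on log2(FPKM + 0.5), in every cTEC (left) and mTEC (right) sample, with the mitochondrial share of counts as bars above. Whole columns are red or blue together, and 4 of the cTEC columns that are red for most members (NPC number 5, D6 number 5, D16 and D28) have the shortest bars.

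A low mitochondrial share went with high levels of the members. Over 28 cTEC samples the median r of the members with the log2 mitochondrial share was -0.57, below 0 for 34 of 34 members, beside -0.05 over all genes tested outside the mitochondrial chromosome. Atf3 had the lowest value of the genes named here (r = -0.82), and without the 2 samples farthest from the median share the members' median was -0.51. In mTECs the median was -0.39, below 0 for 33 of 35 members, beside -0.01 over all genes, and -0.25 without the 2 farthest samples. The exceptions in mTECs were Klf4 (0.01) and Dusp2 (0.04). The members' median r with the log2 total counts was -0.30 in cTECs and -0.11 in mTECs. Over all genes tested outside the mitochondrial chromosome it was 0.01 and 0.06. The part of RNA quality, of depth or of cell state in these values was not tested.

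Whether the members differed among the 6 time points with 3 samples was asked with a limma-voom F-test, with a threshold of 0.01 on the adjusted p and of 2-fold between the highest and lowest fitted time point. In cTECs 2 of 34 members were called (1.02% of 15845 genes tested were), the phosphatase gene Dusp1 and the Krüppel-like factor Klf4. In mTECs 3 of 35 were called (0.766% of 17743 genes), Klf4, the apoptosis regulator Ier3 and Hspa1a. With 0.05 as the threshold on the adjusted p the counts were 7 members in cTECs (2.04% of genes), with Fos, Fosl2, Egr1, Klf6 and Btg2 added, and 16 in mTECs (4.53%). The fitted range between time points had a median of 1.501 on the log2 scale over the members in cTECs, beside 1.28 over all genes. In mTECs it was 1.88 beside 1.55. Without the libraries of low mitochondrial share these medians were 1.51 beside 1.33 in cTECs and 1.70 beside 1.70 in mTECs.

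Among the 6 time points D12 was the low point for most members. Its fitted mean was the lowest of the 6 for 21 of 34 members in cTECs (7.04% of all genes tested) and for 28 of 35 in mTECs (15.0% of all genes). The highest fitted mean fell at D0 for 22 members in cTECs (13.9% of genes) and at D3 for 21 in mTECs (14.6%). Without the libraries of low mitochondrial share or few genes, D12 was lowest for 13 members in cTECs, where D6 was lowest for 17 (25.2% of genes), and for 27 in mTECs. D0 was then highest for 23 in cTECs and D3 for 14 in mTECs (23.3% of genes), where 2 of the 3 D3 samples are such libraries and D-2 was highest for 12. These are descriptions, with no test of the position of the extremes.

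Dusp1, which switches off MAP kinases, had the lowest adjusted p of the members in this F-test in cTECs. Its FPKM was 362, 231 and 589 in the NPC samples, 496, 591 and 749 at D-2, 517, 519 and 429 at D0, 391, 283 and 392 at D3, 143, 120 and 329 at D6, and 193, 163 and 220 at D12. All samples of D-2 and D0 lay above all of D6 and D12, and the NPC samples spread over both ranges. Between the highest and lowest fitted time points Dusp1 ranged by 1.87 on the log2 scale (limma, adjusted p = 0.00390). Klf4, which drives epithelial differentiation programmes, ranged by 1.77 in cTECs (limma, adjusted p = 0.00592).

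In mTECs Klf4 was high in all 3 samples of late gestation. Its FPKM was 105, 67.4 and 188 in NPC, 335, 326 and 349 at D-2, 173, 216 and 123 at D0, 214, 103 and 203 at D3, 141, 71.7 and 38.3 at D6, and 61.3, 46.9 and 72.1 at D12. No other mTEC sample of any time point reached the D-2 range. Klf4 ranged by 2.64 on the log2 scale among time points (limma, adjusted p = 0.00208). Its relative Klf6 had 888, 699 and 671 FPKM at D-2 and at most 558 in any other mTEC sample, and missed the threshold (range 1.78, limma, adjusted p = 0.0197). Ier3 (range 2.40, limma, adjusted p = 0.00783) and Hspa1a (2.05, limma, adjusted p = 0.00838) had their lowest fitted mean of the 6 time points at D12, with 42.1, 13.1 and 37.7 FPKM for Ier3 and 125, 89.5 and 88.8 for Hspa1a, which was lower still in the single sample of D20 (48.7).

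Of the genes followed in every comparison, Fos ranged among time points by 1.64 (limma, adjusted p = 0.0199) in cTECs and 1.89 (0.0199) in mTECs on the log2 scale, and Egr1 by 1.74 (0.0499) and 2.05 (0.0227). Atf3 ranged by 1.75 (0.294) and 2.14 (0.129), and Hspa1a in cTECs by 1.29 (0.278). For Atf3 the spread within time points was wide: 323, 382 and 1396 FPKM in the NPC cTEC samples and 236, 256 and 1389 in those of mTECs.

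Single libraries decided these counts. Without cTEC D6 number 5, 12 of 34 members were called in cTECs (1.09% of genes), and without the libraries of low mitochondrial share 18 were (1.56% of genes). Without mTEC NPC number 4, 17 of 35 members were called in mTECs (3.38% of genes), and without mTEC D6 number 1, 15 were (1.14%). The other leave-outs gave 0 to 3 members in cTECs and 1 to 3 in mTECs, where Klf4 was called in all 18. Of the 18 in each cell type, 9 gave 0 members in cTECs and 13 gave 1 in mTECs. In cTECs Klf4 lost its call in 12 of the 18 and Dusp1 in 9. In mTECs Ier3 and Hspa1a each lost it in 14. With edgeR's quasi-likelihood test no member was called in either cell type.

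The D6 samples were compared with those of D-2, on either side of parturition, and no member passed the thresholds. In cTECs 0 of 34 members were called by limma-voom (1.34% of genes were called), and 13 had an unadjusted p of at most 0.05 (23.3% of genes). DESeq2 called 2 (760 genes) and edgeR called none. With 0.05 as the threshold limma-voom called 2 members (4.35% of genes). Of the 34 members 29 had a lower fitted value at D6, with a median log2 change of -0.59 beside -0.03 over all genes. In mTECs 0 of 35 were called (0.299% of genes), and 11 had an unadjusted p of at most 0.05 (20.3% of genes). DESeq2 called 3 (464 genes), limma-voom at 0.05 called 2 (1.45% of genes) and edgeR called none. There 32 members had a lower fitted value, with a median of -0.77 beside 0.02. By family the medians in cTECs were -0.66 for the AP-1 group, -0.95 for the other transcription factors, -0.60 for the feedback genes and -0.25 for the heat shock and growth arrest genes, and in mTECs -0.77, -1.15, -0.69 and -0.52.

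In cTECs the D6 samples did not form a group. Fos had 3311, 2876 and 2892 FPKM at D-2 and 960, 891 and 3071 at D6, and Egr1 1013, 1086 and 1016 at D-2 and 374, 300 and 1316 at D6. Atf3 had 408, 456 and 373 at D-2 and 201, 196 and 1169 at D6. Numbers 2 and 4 of D6 lay below every D-2 sample for all 3 genes, and number 5 lay within or above the D-2 range. The log2 changes were -1.13 ± 0.39 (SE) for Fos (limma, adjusted p = 0.120), -0.98 ± 0.43 for Egr1 (0.210), -0.19 ± 0.55 for Atf3 (0.872) and -0.29 ± 0.42 for Hspa1a (0.730). Singled out after their values were seen, Dusp1 (-1.82 ± 0.32, limma, adjusted p = 0.0121) and Klf6 (-1.20 ± 0.30, 0.0442) came closest to the thresholds.

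Without cTEC D6 number 5, 12 of 34 members were lower at D6 past the thresholds (0.852% of genes called). They were Fos (-1.73, limma, adjusted p = 0.00172), Fosb, Jun, Junb and Atf3 (-1.05, 0.00793) of the AP-1 group, Egr1 (-1.64, 0.00230), Klf4 (-2.03, 0.00559) and Klf6 (-1.59), the feedback genes Dusp1 (-2.24, 0.00357), Zfp36 and Ier2, and the phosphatase subunit Ppp1r15a, which ends the stress block of translation. The median of the members was then -1.15 beside -0.03 over all genes. Number 5 had a mitochondrial share of 1.16%, against 2.66% and 2.72% in the other D6 and 2.66% to 2.78% in the D-2 samples. It had 9562848 counts. Its cTEC markers summed to 5906 FPKM, beside 7018 and 7189 in the other D6 samples and 484 to 926 at D-2. The median over all 28 cTEC samples was 4932. Which of the 3 samples stands for D6 cannot be told from these libraries.

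In mTECs the 3 samples of D6 were spread as widely. Fos had 2575, 1939 and 2277 FPKM at D-2 and 2789, 1380 and 510 at D6, Egr1 863, 572 and 811 and then 1064, 497 and 159, and Atf3 435, 404 and 453 and then 491, 192 and 68.6. Number 1 of D6 was above every D-2 sample for all 3 genes and numbers 2 and 4 were below. The log2 changes were -0.77 ± 0.46 (SE) for Fos (limma, adjusted p = 0.380), -0.70 ± 0.51 for Egr1 (0.471), -1.14 ± 0.51 for Atf3 (0.245) and -1.05 ± 0.34 for Hspa1a (0.129). Klf4 (-2.08 ± 0.34, limma, adjusted p = 0.0151) and Fosl2 (-1.0004 ± 0.19, 0.0281), singled out after their values were seen, came closest. Without mTEC D6 number 1, Klf4 (-2.54, limma, adjusted p = 0.00740) and Klf6 (-2.28, 0.00740) were called (0.0395% of genes), and all 35 members had a lower fitted value.

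**Figure D3:**
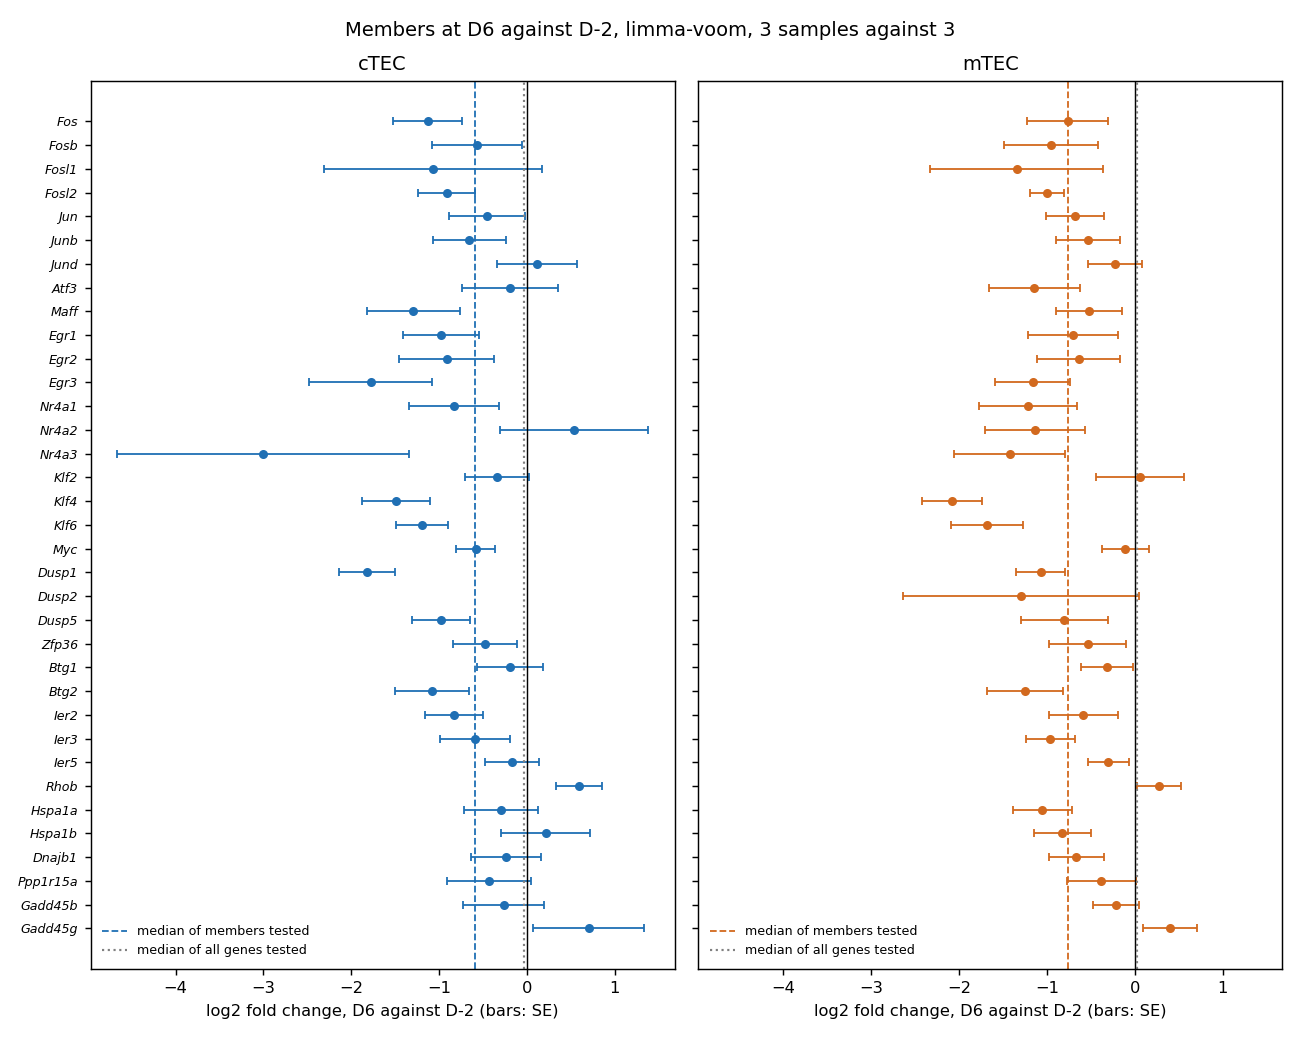
log2 fold change of each member at D6 against D-2 in cTECs (left) and mTECs (right) with its standard error, 3 samples against 3, with lines at 0, at the median of the members tested (dashed) and at the median of all genes tested (dotted). Most points lie left of 0 in both panels (29 of 34 and 32 of 35), and the error bars of many reach 0.

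The change from D-2 to D6 was also compared between the cell types by the interaction in 1 fit of the 12 samples. No member was called by limma-voom (0.00544% of 18394 genes), none had an unadjusted p of at most 0.05, and edgeR, DESeq2 and limma-voom at 0.05 (0.0707% of genes) called none. The interaction was 0.42 ± 0.68 (SE) on the log2 scale for Fos, 0.33 ± 0.76 for Egr1, -0.87 ± 0.85 for Atf3 and -0.72 ± 0.61 for Hspa1a, with limma adjusted p from 0.680 to 0.896. The median over the members was -0.09 beside 0.14 over all genes, with 15 above 0 and 20 below, and without cTEC D6 number 5 it was 0.37 beside 0.13, with 28 above 0 and 7 below, and none was called. Errors of this size leave differences of more than 2-fold in either direction undetected.

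Late gestation was compared with the non-pregnant state in the same way, and the D-2 samples are those used above. In cTECs no member was called by limma-voom (0% of genes were), and 1 had an unadjusted p of at most 0.05 (9.87% of genes). Neither edgeR, DESeq2 nor limma-voom at 0.05 (0.0252% of genes) called any member. The median change was -0.05 beside 0.03 over all genes, with 15 members higher and 19 lower. Without NPC number 5, of low mitochondrial share, 27 were higher and 7 lower, with a median of 0.34 beside 0.06, and none was called. In mTECs no member was called either (0% of genes), and 6 had an unadjusted p of at most 0.05 (12.8% of genes). DESeq2 called 2 (171 genes), and edgeR and limma-voom at 0.05 (0.0676% of genes) called none. There 29 members had a higher fitted value at D-2, with a median of 0.39 beside 0.17 over all genes. Fos changed by 0.26 ± 0.22 (SE; limma, adjusted p = 0.715) in cTECs and 0.26 ± 0.22 (0.632) in mTECs, Egr1 by 0.13 ± 0.27 (0.905) and 0.38 ± 0.25 (0.536), Atf3 by -0.39 ± 0.44 (0.786) and 0.07 ± 0.51 (0.962), and Hspa1a by 0.16 ± 0.38 (0.913) and 0.52 ± 0.31 (0.497).

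Samples from D16 to D28 (4 per cell type, late) were set against those from D0 to D12 (18 per cell type, early). In cTECs no member was called by limma-voom (1.41% of genes), and 2 had an unadjusted p of at most 0.05 (27.2% of genes). Neither edgeR, DESeq2 nor limma-voom at 0.05 (4.08% of genes) called any member. The members were split evenly, 17 higher and 17 lower, with a median of 0.01 beside -0.04 over all genes. Without the 3 libraries of low mitochondrial share (D6 number 5, D16 and D28), which leaves 2 late samples, 6 were higher and 28 lower, with a median of -0.57 beside -0.11, and none was called. In mTECs no member was called (0.0620% of genes), and 10 of 35 had an unadjusted p of at most 0.05 (19.96% of genes). There edgeR, DESeq2 and limma-voom at 0.05 (1.04% of genes) called none. Of the 35 members 30 had a lower fitted value in the late mTEC samples, with a median of -0.43 beside -0.01 over all genes.

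The late samples of both cell types fell apart by day. In cTECs the FPKM of Fos was 2520 on D16, 997 on D20, 1167 on D24 and 3282 on D28, and Atf3 had 1118, 199, 248 and 1682. D16 and D28, high for both genes, are the cTEC libraries with mitochondrial shares of 1.41% and 1.16%, and D20 and D24 had 2.68% and 2.93%. In mTECs Fos had 1850, 741, 722 and 856 FPKM on these days and Atf3 695, 166, 129 and 146, so that D16 was the highest of these days. For Fos the D16 sample still lay below the median of 1928 FPKM over all mTEC samples. Late against early, Fos changed by -0.18 ± 0.36 (SE; limma, adjusted p = 0.787) in cTECs and -0.99 ± 0.38 (0.142) in mTECs, and Egr1 by -0.26 ± 0.38 (0.707) and -1.05 ± 0.41 (0.153). Atf3 changed by 0.59 ± 0.44 (0.410) and -0.42 ± 0.46 (0.648), and Hspa1a by -0.20 ± 0.37 (0.781) and -0.53 ± 0.47 (0.547).

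The heat shock genes Hspa1a, Hspa1b and Dnajb1 were above their medians at D4, D5 and D16, days picked after the values were seen. Hspa1a had 449 FPKM at D4 and 335 at D5 in cTECs, and 385 and 464 in mTECs, against medians of 230 and 219. Hspa1b had 448 and 374 FPKM in cTECs and 398 and 510 in mTECs, against medians of 205 and 182, and their co-chaperone Dnajb1 had 220 and 196 and then 146 and 173, against 106 and 74.4. At D16 Hspa1a had 437 and 479 FPKM and Hspa1b 547 and 638 in cTECs and mTECs. The cTEC library of D16 is one of those of low mitochondrial share. Other time points held samples as high for Hspa1a. In cTECs it had 523 FPKM in NPC number 5 and 486 in D6 number 5. In mTECs it had 712 in D3 number 3 and 460 in D-2 number 1. The mean difference of all 35 members was close to 0 at D4 (0.00270 and -0.00323 on the log2 scale in cTECs and mTECs), and above 0 at D5 (0.17 and 0.53) and D16 (0.58 and 0.50), so that of these 3 days the group as a whole was at its median on D4 alone. Each of these days has 1 sample per cell type, and the cTEC and mTEC sample carry the same number, so the height of the heat shock genes has no replicate check.

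Between the cell types, 6 of 35 members were called by limma-voom over all 56 samples with time point in the model (21.2% of 18394 genes were), which is a smaller share than the background. With 0.05 as the threshold 7 were (24.4% of genes), with Dusp2 added. Of the 6, 5 were higher in mTECs: the nuclear receptor Nr4a3 (2.16 ± 0.50 on the log2 scale, SE; limma, adjusted p = 0.000270), Egr3 (1.47 ± 0.35, 0.000390), the DNA damage response gene Gadd45b (1.16 ± 0.16, 2.55e-08), Ier5 (1.15 ± 0.14, 1.18e-09) and Egr2 (1.06 ± 0.22, 6.72e-05). Klf2, a factor of quiescence and trafficking, was higher in cTECs (-1.08 ± 0.14, 8.12e-09). In bulk samples fewer cells that express a gene and less RNA per cell cannot be told apart.

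The ranges of the called genes overlapped. Ier5 ran from 0.32 over a median of 13.3 to 29.0 FPKM in cTECs and from 18.0 over 28.02 to 56.6 in mTECs, and Gadd45b from 5.45 over 21.6 to 49.3 and from 19.8 over 45.4 to 161. Klf2 ran from 46.0 over 188 to 345 in cTECs and from 17.5 over 82.5 to 221 in mTECs. Nr4a3 was near the limit of detection in both. The genes followed in every comparison differed by less than 2-fold: Fos by -0.16 ± 0.12 (SE; limma, adjusted p = 0.281), Egr1 by -0.32 ± 0.13 (0.0411), Atf3 by -0.36 ± 0.20 (0.123) and Hspa1a by -0.07 ± 0.12 (0.667), each lower in mTECs. With no fold threshold 13 of the 35 members were called (7524 genes). Over the 35 members the median was -0.13 beside 0.03 over all genes, with 13 higher and 22 lower in mTECs. Without the libraries of low mitochondrial share or few genes it was -0.05 beside 0.03, with 15 higher and 20 lower. With the mitochondrial share as a covariate the median was 0.11 beside 0.07.

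Markers of other cells differed between the sorts as well. Of 8 macrophage and dendritic cell markers 5 were higher in mTECs, with sums of 17.1 to 215 FPKM against 4.48 to 43.4 in cTECs, of 5 red blood cell markers 4 were higher (0 to 79.1 against 0 to 9.57), and of 10 thymocyte markers 8 were lower (8.57 to 88.9 against 15.1 to 241). Of 6 fibroblast markers 3 were higher in mTECs and 1 lower. The 1 of 6 endothelial markers tested was not called. The other 5 were at 0 in 22 to 26 of 28 cTEC samples and, in mTECs, in 8 (Cdh5), 15 (Kdr), 16 (Egfl7), 20 (Tie1) and 25 (Emcn), and Pecam1 reached 10.7 FPKM in mTECs. The part of such cells in the 6 differences was not tested. With the mitochondrial share as a covariate the difference of Klf2 was -0.90, under 2-fold.

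**Figure D4:**
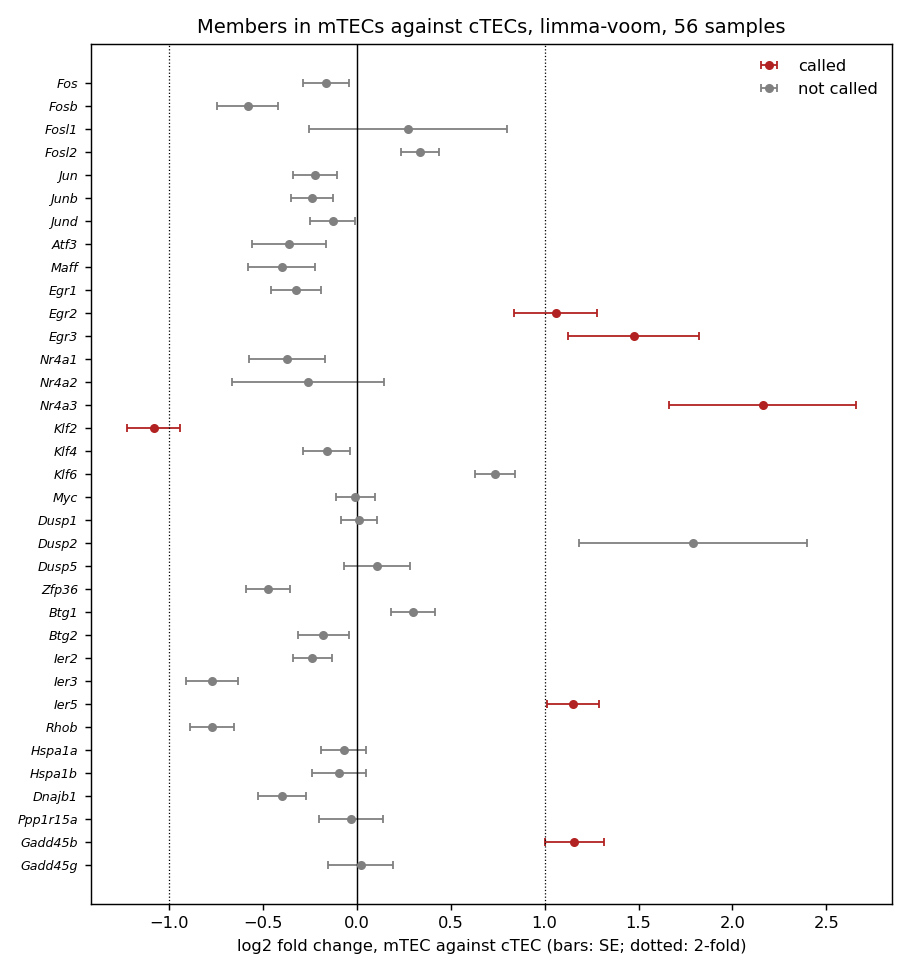
log2 fold change of each member in mTECs against cTECs with its standard error, limma-voom over 56 samples, with dotted lines at 2-fold and called members in red. The 5 red points on the right are Egr2, Egr3, Nr4a3, Ier5 and Gadd45b and the 1 on the left is Klf2.

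cTECs and mTECs with the same time point and title number may come from the same digest, and it was asked whether such samples deviated together. In 16 same-numbered pairs at the 6 time points with 3 samples, each sample's deviation from the mean of the paired samples of its time point was correlated between the cell types, with an exact one-sided permutation test over 5184 arrangements within time points. No member passed the adjusted threshold of 0.05 (0 of 34, and 0% of 15177 genes). An unadjusted p of at most 0.05 was reached by 7 of 34 members (20.6%), beside 6.37% of all genes. The median r of the members was 0.36 beside 0.04 over all genes, and 29 of 34 were above 0. Since the members move together, these counts are not 34 separate observations. Spearman's rho had a median of 0.36, and without the 2 farthest pairs the median r was 0.32. With the labels' replicate number in place of the title number the median was 0.03.

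By gene the highest values were those of Hspa1b (r = 0.71, exact permutation p = 0.0257, adjusted 0.726), Dusp5 (r = 0.64, exact permutation p = 0.0160, adjusted 0.684), Btg2 (0.60), Dnajb1 (0.57) and Klf4 (0.56, exact permutation p = 0.0110, adjusted 0.670). Fos had r = 0.52 (exact permutation p = 0.0735, adjusted 0.811), Hspa1a 0.46 (0.0774, 0.822), Egr1 0.45 (0.160, 0.840) and Atf3 0.41 (0.0849, 0.822). The anti-proliferative gene Btg1 had the lowest value (-0.37). The 16 pairs hold neither cTEC NPC number 5 nor cTEC D6 number 5, which have no mTEC sample of their number. At D28 the 2 samples of number 1 lay apart, with mean differences of 0.80 in cTECs and -0.74 in mTECs.

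**Figure D5:**
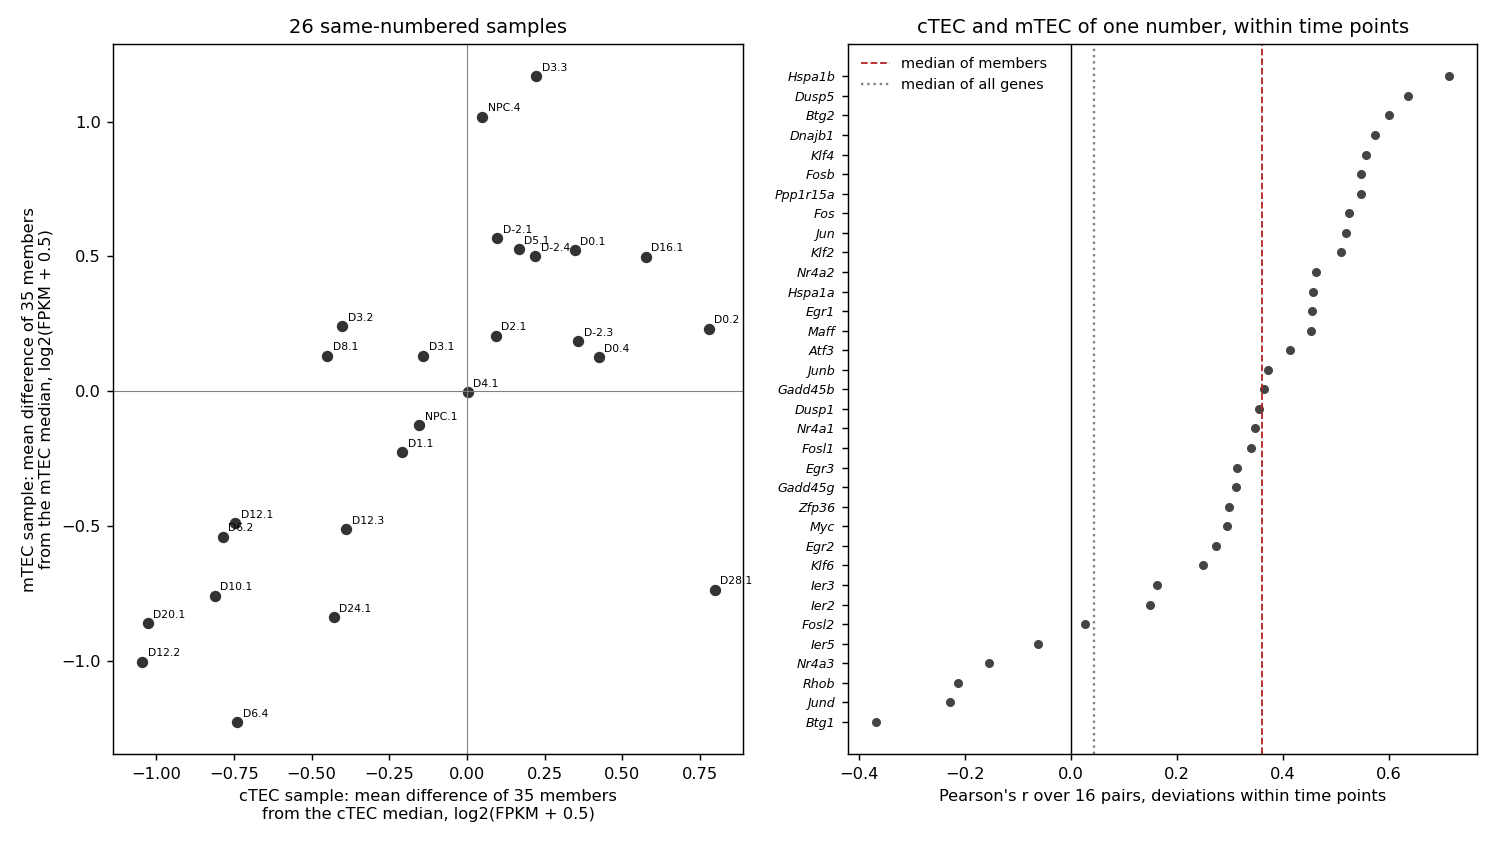
Left, mean difference of the 35 members from the median of the cell type, log2(FPKM + 0.5), in the mTEC against the cTEC sample of the same time point and number. Right, Pearson's r of each of 34 members over 16 pairs after time point means were taken out, with the medians of the members (0.36, dashed) and of all genes (0.04, dotted). Most members lie right of 0, and D28 lies alone in the lower right of the left panel.

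Other genes of these pathways were followed in lists of their own. Of 25 MAP kinase and SRF pathway genes 24 were tested, and none was called at D6 against D-2 or among time points in either cell type. In cTECs the phosphatase Dusp4 (1.87, limma, adjusted p = 0.00561) and Spred2, an inhibitor of the pathway (1.19, 0.000153), rose from early to late samples. Between the cell types Dusp4 (2.53, limma, adjusted p = 7.02e-15) and Elk3, a partner of SRF (2.07, 1.03e-16), were higher in mTECs. Of 25 further genes known to respond to dissociation, all tested, Nfkbia, the inhibitor of NF-κB, fell at D6 in cTECs (-1.49, limma, adjusted p = 0.00666) and 22 of 25 had a lower fitted value there (52.0% of all genes did). In mTECs 24 of 25 had a lower fitted value at D6 (48.5% of all genes), with a median of -0.55, and none was called. Ccn2 was higher in late than in early samples of cTECs (2.01, limma, adjusted p = 0.00533) and mTECs (1.87, 0.00358), Csrnp1 varied among time points in cTECs (range 1.98, 0.00933), and the kinase gene Pim1 was higher in mTECs (1.00, 3.48e-11).

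Of 15 further heat shock factor targets and chaperones 1 was called in 1 comparison, Hsp90aa1 among time points in mTECs (range 1.40, limma, adjusted p = 0.00305). Of 11 genes of the unfolded protein and integrated stress response, of which 10 were tested in cTECs, Herpud1 fell at D6 in cTECs (-1.33, limma, adjusted p = 0.00393) and varied among time points there (range 1.33, 0.00851). Chac1 of the same list was higher in mTECs (1.57, limma, adjusted p = 0.00923). No gene of these 4 lists was called at D-2 against NPC or in the interaction. Beside them, 5 of 6 cTEC markers rose at D6 in cTECs, led by Dll4 (3.95, limma, adjusted p = 0.000423) and Prss16 (3.71, 7.09e-05), while the mTEC marker Cldn3 (-2.05, 0.00837) and the fibroblast marker Dcn (-1.32, 0.00355) fell. The fitted values of 8 of 8 mTEC markers were lower (median -1.60) and those of 9 of 10 thymocyte markers higher (median 3.00), with no thymocyte marker and 1 mTEC marker called. In mTECs 8 of 9 thymocyte markers tested had a higher fitted value at D6 (median 1.31), with none called. The part of these changes in the members' values was not tested.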

How the data were processed

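The members and the other gene lists were chosen with earlier results of these data known. Reads were trimmed, aligned to GRCm38 and quantified by the authors (Trimmomatic 0.35, STAR 2.5.1b and RSEM 1.2.28 in the submitters' notes). For each sample the authors deposited RSEM's expected counts, which are not normalized, and FPKM, scaled by gene length and depth. The deposited TPM values were not used. The library kit marks strand, but the strand setting of the counting is not given in the sources used here, so reads of overlapping genes on the other strand (at Fosl1, Jun, Junb, Jund, Atf3, Dusp1, Zfp36, Hspa1a and Ppp1r15a) may be included. Symbols came from GENCODE M21, which matched 50376 of 50600 identifiers, and promoters from RefSeq (GRCm38.p6).

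Expected counts were rounded and tested with limma 3.58.1 (voom) after TMM scaling in edgeR 4.0.16 (R 4.3.3), for genes whose FPKM averaged 0.5 or more in the 28 samples of a cell type (of either cell type where both were compared). Calls needed a 2-fold change and, adjusted by Benjamini-Hochberg across the genes tested, a p no larger than 0.01. D6 was compared with D-2 and D-2 with NPC on those samples alone, late with early samples, mTECs with cTECs with time point as a factor, and the 6 time points by F-test. Pairs were tested on log2(FPKM + 0.5) in Python 3.11.15 with SciPy 1.17.1. Named were the called members, up to 10 per comparison, and Fos, Egr1, Atf3 and Hspa1a in each, the 10 genes most like Fos, and up to 4 called genes of each other list. Scripts were tested on simulated data. Alternatives were edgeR, DESeq2 1.42.0, limma-trend on log2 FPKM, other scalings, filters and thresholds, sample quality weights, replicate blocks, the mitochondrial share as a covariate and leaving out samples. Total counts per sample ran from 4561208 to 108547384, and no pair of libraries agreed within sampling noise.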

Additional observations from a re-analysis of the deposited data

Results flagged for a closer look

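Among the 4 late samples (D16, D20, D24 and D28), which are the only groups of 4 in the data, 69 groups of a member in a cell type were tested for a sample far from the others, and 8 were singled out. Chance gives about 1 in 20 for a single group, but all 8 were mTECs with the D16 sample as the high one, and the members move together, so they count as 1 library and not as 8 observations. Over all genes tested in mTECs, the D16 sample was the high one by the same measure in 3.36% (596 of 17743), and 9.23% had any late sample apart.

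In the AP-1 group, Fosb had 754 FPKM at D16 against 237 to 270 in the other 3 samples, Jun 998 against 414 to 430, Junb 651 against 348 to 376 and Atf3 695 against 129 to 166. Of the other transcription factors, Nr4a3 had 2.06 against 0.43 to 0.59. Of the feedback genes, Dusp1 had 292 against 170 to 181, Zfp36 682 against 275 to 318 and Rhob, a small GTPase, 76.6 against 25.7 to 30.5. The D16 mTEC library had 1.81% mitochondrial counts, against 2.68% to 3.07% in the other 3, and its macrophage and dendritic cell markers summed to 215 FPKM, against 81.2 to 98.0. The part of either in these values was not tested.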

How the results depend on the processing

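Counts of members called moved with the test and with single libraries more than with scaling. The number of all genes called in the same setting is given in brackets. At D6 against D-2 in cTECs 0 members were called (213 genes). The count was 2 with DESeq2 (760 genes), 3 with no filter (395) and 1 with sample quality weights (251). It was 2 at an adjusted p of at most 0.05 (690 genes) and 1 in a fit of all 28 samples (250). Without the libraries of low mitochondrial share it was 12 (135 genes). In mTECs (0, with 53 genes) it was 3 with DESeq2 (464 genes), 1 with no filter (105), 4 with weights (286) and 2 at 0.05 (257). At D-2 against NPC in mTECs (0, with 0 genes) it was 2 with DESeq2 (171 genes) and 2 with no filter (26). In the fit of all samples it was 1 (101 genes). In late against early samples of cTECs (0, with 223 genes) it was 6 with weights (1045 genes). In those of mTECs (0, with 11 genes) it was 1 with no filter (143) and 6 with D12 counted as late (159). Among time points the count in cTECs (2, with 162 genes) was 0 with edgeR (144 genes) and with limma-trend (78 or 77). It was 8 with DESeq2 (472 genes), 6 with no filter (82), 5 with weights (202) and 7 at 0.05 (323). In the fit of all samples it was 1 (146 genes). Without libraries of low mitochondrial share it was 18 (247 genes), and with that share as a covariate 13 (207). In mTECs (3, with 136 genes) it was 0 with edgeR (26 genes), limma-trend (0) and weights (7). It was 8 with DESeq2 (408 genes), 14 with no filter (502), 16 at 0.05 (804) and 1 without libraries of few genes (76). Between the cell types (6, with 3897 genes) it was 13 with no fold threshold (7524 genes). The causes were not tested. The settings that use the mitochondrial share, the libraries of few genes or the labels' replicate number at D6 were chosen after seeing the data.

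Leaving out 1 sample in turn gave 0 to 12 members at D6 against D-2 in cTECs and 0 to 2 in mTECs, 0 to 12 among time points in cTECs and 1 to 17 in mTECs, 6 to 7 between the cell types, and 0 in the other comparisons. Log2 changes that turned their sign so ranged from -1.05 to 0.25 (Atf3) and -0.83 to 0.22 (Hspa1a) at D6 in cTECs, from -0.75 to 0.22 (Atf3), -0.10 to 0.49 (Egr1) and -0.16 to 0.64 (Hspa1a) at D-2 in cTECs, from -0.49 to 0.11 (Fos) and -0.53 to 0.25 (Hspa1a) in late cTECs, from -1.33 to 0.00178 (Egr1) at D6 and -0.38 to 0.85 (Atf3) at D-2 in mTECs, and from -0.16 to 1.03 (Fos) and -0.33 to 1.00 (Egr1) in the interaction.

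A block by replicate number gave 14 members among time points in cTECs (187 genes called) and 1 in mTECs (62). At D6 against D-2 it gave 5 in mTECs (296 genes) and, by the labels' number, 1 in cTECs (195). There the title numbers share 1 value, and the block by title number was not run. Between the cell types a block gave 6 (random, 3852 genes) or 7 (fixed, 3803) members. In the other comparisons a block changed no count. Deviations of same-numbered cTEC and mTEC samples over all genes correlated between -0.05 and 0.12, above 0.1 in 1 of 16 pairs. Of 16 samples 11 correlated best with their own number, and no chance level was computed for that count. At NPC and D6 the pairs have the same r by construction (0.0132 and 0.00621), so each of these time points counts once. The numbers are thus neither shown to pair the samples nor shown not to. With the labels' replicate number the pair correlation was -0.35 for Fos, -0.38 for Egr1, -0.0169 for Btg2, -0.20 for Klf4, -0.11 for Fosb and -0.23 for Jun.

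Other values with a turned sign were those of Atf3 at D6 in cTECs (0.28 with edgeR, 0.26 with DESeq2), at D-2 in cTECs (0.14 with the block, 0.22 without libraries of low mitochondrial share), in late cTECs (-0.19 with D12 as late, -0.51 without those libraries), at D-2 in mTECs (-0.38 with edgeR, -0.40 with DESeq2, -0.14 with weights, -0.0270 or -0.0266 with limma-trend), in late mTECs (0.54 with no filter) and between the cell types (0.41 with no filter). In late cTECs Fos was 0.43 with weights and 0.0440 with limma-trend, Egr1 0.28 with weights, and Hspa1a 0.14 with no filter and 0.80 with weights. Hspa1a was 1.38 in late mTECs with no filter and 0.11 between the cell types with the covariate, and with weights the interaction was -0.49 for Fos and -0.62 for Egr1.

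Over all settings the genes called ranged from 5 to 760 at D6 against D-2 in cTECs (213 as reported) and 0 to 464 in mTECs (53), 0 to 90 and 0 to 171 at D-2 against NPC (0 and 0), 0 to 1045 and 1 to 184 in late against early samples (223 and 11), 77 to 472 and 0 to 804 among time points (162 and 136), 2833 to 7524 between the cell types (3897) and 1 to 117 in the interaction (1). At D6, where samples of the same time point differed several fold in Fos, Egr1 and Atf3, changes of about 2-fold in these genes did not pass the thresholds.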
